A study of Arabidopsis thaliana with 9 samples.

Results

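The SMXL family of *Arabidopsis thaliana* comprises SMAX1 (SUPPRESSOR OF MAX2 1) and its SMAX1-LIKE relatives SMXL2 to SMXL8. Its 8 genes were located by their gene identifiers among the 32830 genes of a count matrix from dark-germinating seeds, and their transcripts were followed over 9 libraries. SMAX1 is AT5G57710, SMXL2 AT4G30350, SMXL3 AT3G52490, SMXL4 AT4G29920, SMXL5 AT5G57130, SMXL6 AT1G07200, SMXL7 AT2G29970 and SMXL8 AT2G40130. Each gene had a single entry in the matrix. Counts were found for 7 of the 8 genes, and SMXL8 was listed at 0 in every library.

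All libraries were made from whole seeds held for 24 h in the dark after 4 days at 4 °C, in 3 groups of 3. For every library the sample records give light of 0.3 μmol per square meter per second at plating. One group was the wild-type accession Ara-1 without karrikin. The others were the overexpression line AtKAI2OE, labelled as Col-0, either untreated or supplied with 0.5 μM KAR2, a karrikin found in smoke. The study's methods place this *KAI2* transgene, driven by the constitutive 35S promoter, in the *kai2* mutant *htl-3*, and the labels do not say which of the study's overexpression lines was used. Both AtKAI2OE groups therefore carry the same mutation and transgene, which Ara-1 lacks. Within AtKAI2OE only KAR2 differed. Between Ara-1 and AtKAI2OE the accession, the *kai2* allele and the transgene differed together and cannot be told apart, and against the treated seeds KAR2 differed as well.

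SMXL proteins are nuclear repressors that resemble ClpB-type heat shock proteins and recruit TOPLESS corepressors. In the karrikin pathway, a ligand bound by the receptor KAI2 brings SMAX1 and SMXL2 to the F-box protein MAX2, which marks them for degradation, and this relieves their block on germination and seedling growth. The strigolactone receptor D14 uses the same F-box protein to remove SMXL6, SMXL7 and SMXL8, which restrain shoot branching. SMXL3, SMXL4 and SMXL5 act in phloem formation and escape this degradation. RNA counts measure transcripts and carry no information on protein removal.

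The stretch around the P-loop motif Arg-Gly-Lys-Thr, which receptor-triggered degradation of SMXL proteins needs, separates the family by sequence. The coding stretches below are from RefSeq's TAIR10.1 genome, 5′ to 3′ on the coding strand, with the 4 codons of the motif in capitals.
SMAX1 (chr5:23387159-23387206, plus strand): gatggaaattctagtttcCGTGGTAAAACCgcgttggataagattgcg
SMXL2 (chr4:14850143-14850190, plus strand): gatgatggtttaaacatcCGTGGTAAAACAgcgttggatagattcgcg
SMXL6 (chr1:2209828-2209875, minus strand): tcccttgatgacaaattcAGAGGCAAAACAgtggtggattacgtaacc
SMXL7 (chr2:12778912-12778959, plus strand): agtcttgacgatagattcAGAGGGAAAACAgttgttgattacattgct
SMXL8 (chr2:16768199-16768246, plus strand): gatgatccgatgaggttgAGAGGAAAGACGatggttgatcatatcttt
Each stretch lies within 1 exon. No such codons were found in SMXL3 (chr3:19455505-19459203, minus strand), SMXL4 (chr4:14632413-14636101, minus strand) or SMXL5 (chr5:23144947-23149615, plus strand). Among 27444 coding genes, 121 (0.441%) held the motif.

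Another motif that ties these proteins to their function is the EAR motif, a run of alternating leucines bound by TOPLESS corepressors. Only the pattern Leu-x-Leu-x-Leu was searched. It was found at least once in every member except SMAX1 and in 27.1% of all coding genes. SMAX1 is not thereby shown to lack the motif, and the paper cites its interaction with TOPLESS proteins. The share over all genes was not matched for coding length, and the members span 815 to 1028 codons. The only matches in SMXL2 (at 53.5% of the coding length) and SMXL5 (45.8%) are not shown. Nor are the earlier matches in SMXL3 (45.5%), SMXL4 (42.4%) and SMXL8 (7.9%). Matches at or beyond 84.2% of the coding length are shown with the motif's codons in capitals and flanking bases in lower case.
SMXL3 (motif at chr3:19455952-19455966, minus strand): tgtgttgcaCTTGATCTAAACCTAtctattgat
SMXL4 (motif at chr4:14633118-14633132, minus strand): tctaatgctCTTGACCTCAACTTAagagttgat
SMXL6 (motif at chr1:2209462-2209476, minus strand): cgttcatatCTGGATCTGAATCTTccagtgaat
SMXL7 (motif at chr2:12779335-12779349, plus strand): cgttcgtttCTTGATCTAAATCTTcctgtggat
SMXL8 (motif at chr2:16768643-16768657, plus strand): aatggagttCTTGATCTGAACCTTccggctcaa
In translated coding sequence the closest pairs were SMXL6 and SMXL7 (69.2% identity), SMAX1 and SMXL2 (57.6%) and SMXL4 and SMXL5 (51.7%). SMXL4 and SMXL6 were the farthest apart at 27.4%.

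The libraries held between 17479888 and 33306518 counts assigned to genes, of which 930 to 3938 belonged to the SMXL family. Entries that named no gene held 13.4% to 35.1% of a library's counts, with the highest share in Ara-1 replicate 1. Levels are CPM (counts relative to the scaled library size) with scaling factors from all 9 libraries, and differences are log2 fold changes from the quasi-likelihood test of edgeR, with p-values adjusted over all genes tested by the Benjamini-Hochberg method. The labels do not say what a replicate number stands for. As a check on the samples, *KAI2* was measured at 128.7, 129.5 and 216.9 CPM in untreated AtKAI2OE and at 568 to 604 CPM with KAR2. In Ara-1 it lay between 7.84 and 9.77 CPM. Reads of the transgene and of the resident *KAI2* gene cannot be told apart.

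SMAX1, the main repressor of the karrikin response in seeds, was the most abundant family member in every library. Its level was 23.5, 21.6 and 15.9 CPM in Ara-1, 66.6, 104 and 81.7 CPM in untreated AtKAI2OE and 69.9, 65.3 and 70.0 CPM after KAR2. Both AtKAI2OE groups lay above Ara-1 without overlap, and the 3 treated libraries lay close together near the lowest untreated one. In whole seeds, fewer cells of a type and less RNA per cell cannot be told apart.

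SMXL2, which acts partly redundantly with SMAX1, had a different order. It was measured at 7.17, 6.63 and 5.92 CPM in Ara-1 and at 18.5, 18.1 and 14.2 CPM in untreated AtKAI2OE. With KAR2 it reached 29.1, 29.5 and 28.7 CPM. The 3 groups were fully separated, with Ara-1 lowest and the treated seeds highest.

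Among the phloem members, SMXL3 was highest in Ara-1. Its level was 8.58, 10.13 and 9.20 CPM in Ara-1, 1.92, 5.34 and 3.42 CPM in untreated AtKAI2OE and 6.78, 6.53 and 7.27 CPM after KAR2. All 3 groups were again separated, with the untreated line lowest and most variable. SMXL4 had the lowest level of the expressed members, between 0.387 and 1.81 CPM over the 9 libraries, from 12 to 62 counts each. SMXL5 spanned 2.60 to 5.13 CPM in Ara-1, 2.78 to 4.78 CPM in untreated AtKAI2OE and 4.90 to 5.94 CPM after KAR2. Its Ara-1 and untreated ranges almost coincided.

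The strigolactone members SMXL6 and SMXL7 were both lowest in Ara-1. SMXL6 was measured at 4.91, 4.54 and 3.45 CPM there, at 7.87, 13.5 and 13.4 CPM in untreated AtKAI2OE and at 8.68, 10.9 and 10.5 CPM after KAR2. SMXL7 was measured at 3.896, 3.97 and 4.53 CPM in Ara-1, at 5.82, 6.26 and 5.62 CPM in the untreated line and at 7.13, 8.05 and 6.22 CPM after KAR2. For both genes the AtKAI2OE groups overlapped each other and lay above Ara-1.

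SMXL8, the remaining D14 target, had 0 counts in each library. A floor of 3 counts over a group allows up to 0.0334 CPM in Ara-1, 0.0489 CPM in untreated AtKAI2OE and 0.0356 CPM after KAR2, for counting error only. It was 1 of 9384 genes (28.6%) with no count in any library. The gene lies at chr2:16765709-16769279 on the plus strand in TAIR10.1 and overlaps the antisense RNA gene AT2G09115 by 156 bases. The matrix also has 1105 assembled entries without a gene and without positions, so reads placed in such an entry cannot be traced back to SMXL8.

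**Figure D1:**
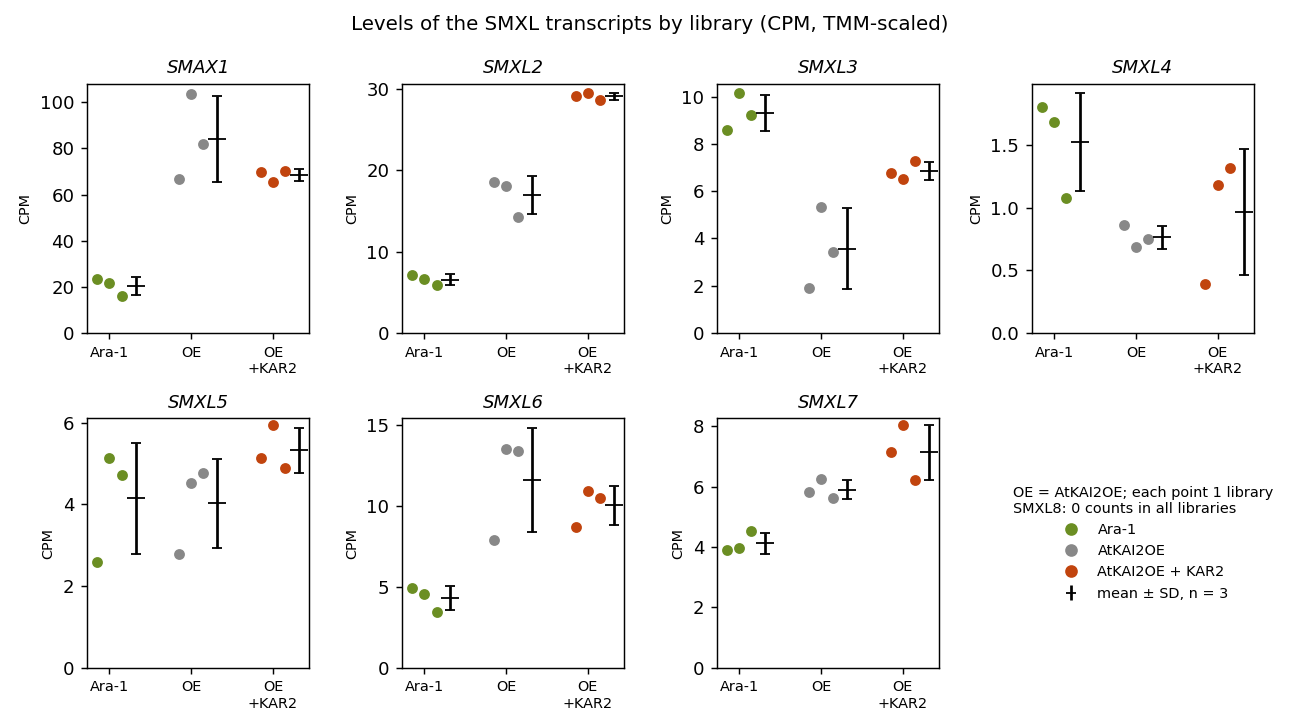
Level of each expressed SMXL gene in CPM (vertical axes, each starting at 0) in the 9 libraries, 1 point per library, with the mean and SD of 3 libraries beside the points. SMAX1, SMXL2, SMXL6 and SMXL7 are lowest in Ara-1, SMXL3 is lowest in untreated AtKAI2OE, and the SMXL2 points after KAR2 lie between 28.7 and 29.5 CPM, above all others.

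Summed over the family, the level was 50.35 ± 4.80 CPM in Ara-1 (SD, n = 3), 126.8 ± 24.0 CPM in untreated AtKAI2OE and 127.8 ± 0.932 CPM after KAR2. The treated libraries (127.1 to 128.8 CPM) fell within the untreated range of 104.3 to 152.1 CPM, and Ara-1 reached at most 53.68 CPM. Within AtKAI2OE the groups thus overlapped in this sum.

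Divided by transcript length, the members could be ranked within a group. In untreated AtKAI2OE SMAX1 led with 21.4 CPM per kb, followed by SMXL2 (4.84), SMXL6 (2.98) and SMXL7 (1.60). SMXL5 (1.104) and SMXL3 (1.087) had overlapping ranges, and SMXL4 was last at 0.217 CPM per kb. After KAR2 the order began the same way with SMAX1 at 17.4, SMXL2 at 8.31 and SMXL6 at 2.57 CPM per kb. SMXL3 (2.095) stood above SMXL7 (1.94) in the means, although their ranges overlapped, and SMXL5 (1.46) and SMXL4 (0.273) closed the order. In Ara-1 SMXL3 (2.84 CPM per kb) stood second, between SMAX1 (5.19) and SMXL2 (1.88), without overlap on either side. SMXL5 (1.14), SMXL7 (1.12) and SMXL6 (1.103) could not be ordered there, and SMXL4 was again last at 0.433 CPM per kb.

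SMAX1 thus made up 64.1% ± 2.27 (SD, n = 3) of the family's CPM per kb in untreated AtKAI2OE, 51.1% ± 1.95 after KAR2 and 37.6% ± 4.57 in Ara-1. SMAX1 and SMXL2 together held 76.8% to 81.1% in the untreated line and 73.7% to 77.1% after KAR2, with overlapping ranges, but 46.9% to 56.6% in Ara-1. The phloem members SMXL3 to SMXL5 held 27.1% to 35.9% of the pool in Ara-1. In AtKAI2OE they held 5.80% to 7.92% without KAR2 and 10.6% to 11.6% with it. The share of SMXL6 and SMXL7 differed least, at 15.3% to 17.2%, 13.0% to 15.3% and 12.3% to 14.7% in Ara-1, untreated and treated AtKAI2OE.

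**Figure D2:**
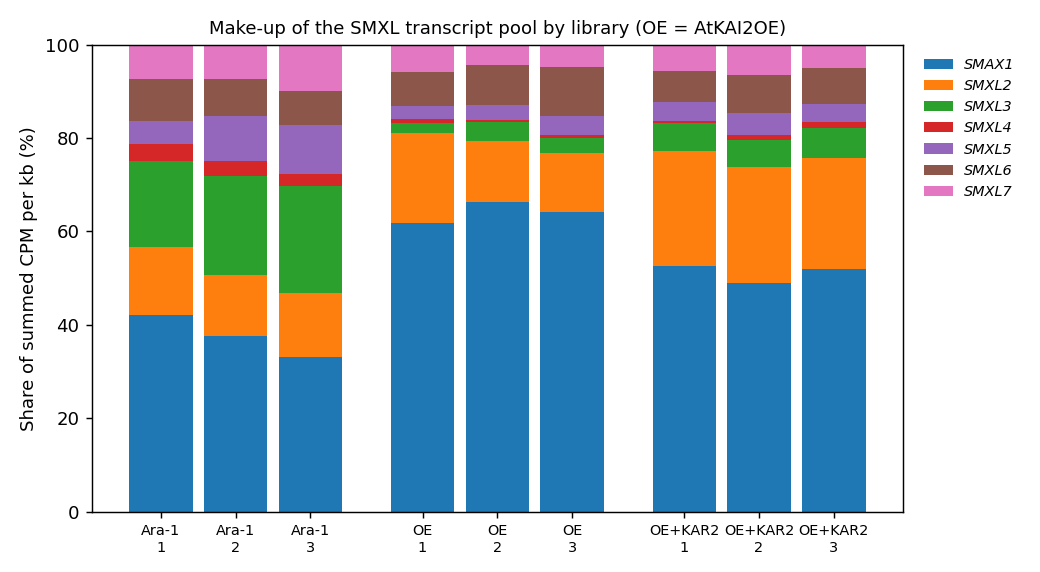
Share of each SMXL gene in the family's summed CPM per kb of transcript (vertical axis, percent) for each of the 9 libraries, as stacked bars from 0 to 100. SMAX1 and SMXL2 form 76.8% to 81.1% of the bar in untreated AtKAI2OE and 46.9% to 56.6% in Ara-1, where SMXL3 to SMXL5 take 27.1% to 35.9%.

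The study's own comparison asked how KAR2 changed gene expression in dark AtKAI2OE seeds. Among the SMXL transcripts only SMXL2 passed the test, and it rose 1.68-fold. Its log2 fold change was 0.75 (SE 0.15, 95% interval 0.39 to 1.11, adjusted p = 0.00545 from edgeR), and all 3 treated libraries lay above all 3 untreated ones. The test called 1 of the 7 tested members against 53.8% of the 17226 genes tested (29.8% higher and 24.0% lower). The members' median absolute log2 fold change was 0.32, against 0.76 for all genes.

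For SMAX1 the log2 fold change was -0.32 (SE 0.17, interval -0.71 to 0.08, adjusted p = 0.147 from edgeR). Scaling by library size only gave 0.07, and leaving out untreated replicate 1 gave -0.47 with an adjusted p of 0.0269. SMXL3 had the largest estimate, 0.91 (SE 0.33, interval 0.12 to 1.70), but missed the threshold with an adjusted p of 0.0534 from edgeR, although its groups did not overlap. It passed in 7 of the 12 alternative settings that kept all replicates, with adjusted p between 0.0231 and 0.0495, and without untreated replicate 2 (1.29, adjusted p = 0.00689).

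The other members did not pass, which does not show that they were unchanged. They were 0.31 for SMXL4 (SE 0.52), 0.38 for SMXL5 (SE 0.23), -0.23 for SMXL6 (SE 0.22) and 0.24 for SMXL7 (SE 0.17), with adjusted p from edgeR between 0.204 and 0.644. Without untreated replicate 1 SMXL6 passed as lower (-0.46, adjusted p = 0.0332). With scaling by library size only its estimate was 0.15, and SMXL5 (0.76, adjusted p = 0.0429) and SMXL7 (0.64, adjusted p = 0.0181) passed as higher. That scaling moved the median of all genes by 0.40, and raised the higher calls from 5140 of 9266 to 7105 of 9372. The groups did not overlap for SMXL2, SMXL3 and SMXL5, that is, for 3 of 7 members against 65.2% of all genes.

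Because SMXL2 and SMAX1 are targets of the same receptor, their ratio was taken within each library, where scaling between libraries has no part. Per kb of transcript SMXL2 stood at 0.312, 0.196 and 0.196 of SMAX1 in untreated AtKAI2OE and at 0.467, 0.506 and 0.459 after KAR2. In Ara-1 the ratio was 0.342, 0.344 and 0.417. The 3 groups did not overlap, and the treated seeds had the highest share of SMXL2.

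On the log2 scale the ratio was 1.06 higher with KAR2 than without it. It was 0.68 higher in Ara-1 than in untreated AtKAI2OE, and 0.38 lower (-0.38) than in treated AtKAI2OE. Each of these 3 differences had p = 0.1 in a two-sided exact permutation test, the smallest value that 3 against 3 libraries allow, and an adjusted p of 0.1.

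**Figure D3:**
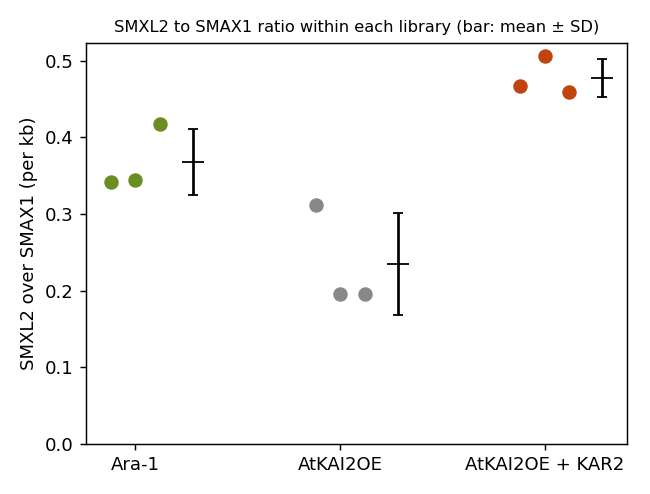
Ratio of SMXL2 to SMAX1 counts per kb of transcript (vertical axis, no unit, from 0) in each of the 9 libraries by group, 1 point per library, with the mean and SD of 3 libraries beside the points. The ratio lies between 0.196 and 0.312 in untreated AtKAI2OE and between 0.459 and 0.506 after KAR2, with Ara-1 between them.

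Ara-1 against untreated AtKAI2OE gave larger differences, in both directions. The 4 expressed members that carry the P-loop motif were lower in Ara-1, but a link between the motif and transcript level was not tested. SMAX1 was 4.22-fold lower (log2 fold change -2.08, SE 0.22, adjusted p = 0.00012 from edgeR), SMXL6 2.76-fold lower (-1.46, SE 0.25, adjusted p = 0.0015) and SMXL2 2.65-fold lower (-1.40, SE 0.19, adjusted p = 0.000419). SMXL7 was 1.46-fold lower (-0.54, SE 0.20, adjusted p = 0.0464). Members without the motif were higher or did not pass: SMXL3 was 2.54-fold higher (1.35, SE 0.35, adjusted p = 0.00987) and SMXL4 1.94-fold higher (0.96, SE 0.36, adjusted p = 0.047).

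SMXL5 had an estimate of 0.03 with an interval from -0.77 to 0.82, and its sign changed under several alternatives. In total 6 of the 7 members were called, beside 69.6% of the 17905 genes tested (37.9% higher and 31.8% lower), and the same 6 members did not overlap between groups, beside 75.2% of genes. The members' median absolute change of 1.35 was close to the 1.31 of all genes, while their median signed change was -0.54 against 0.16. The calls for SMXL4 and SMXL7 were fragile. SMXL4 lost its call when any single library was left out, and SMXL7 when any but untreated replicate 1 was left out. With scaling by library size only SMXL7 stood at -0.19 (adjusted p = 0.486 from edgeR). That scaling moved the median of all genes by 0.36 and the higher calls from 6785 of 12470 to 7904 of 12321. Ara-1 reads had been mapped to the Columbia reference, so sequence differences between accessions cannot be told apart from differences in level.

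The 4 expressed members with the P-loop motif were also lower when Ara-1 was set beside KAR2-treated AtKAI2OE, a comparison that shares the Ara-1 libraries. SMXL2 was 4.56-fold lower in Ara-1 (-2.19, SE 0.10, adjusted p = 1.65e-06 from edgeR) and SMAX1 3.46-fold lower (-1.79, SE 0.14, adjusted p = 2.79e-05). SMXL6 was lower by a log2 fold change of -1.27 (SE 0.17, adjusted p = 0.000373) and SMXL7 by one of -0.82 (SE 0.14, adjusted p = 0.00152). SMXL3 was 1.32-fold higher (0.40, SE 0.11, adjusted p = 0.0144). Here 5 of 7 members were called beside 62.4% of the 17978 genes tested (30.1% higher and 32.2% lower), and the groups did not overlap for 5 members beside 69.7% of genes.

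The call for SMXL3 in this comparison was lost without treated replicate 1 (adjusted p = 0.0544) or treated replicate 2 (0.0532), and in a fit of all 9 libraries (0.235). SMXL4 (0.62, SE 0.46) and SMXL5 (-0.37, SE 0.24) did not pass.

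**Figure D4:**
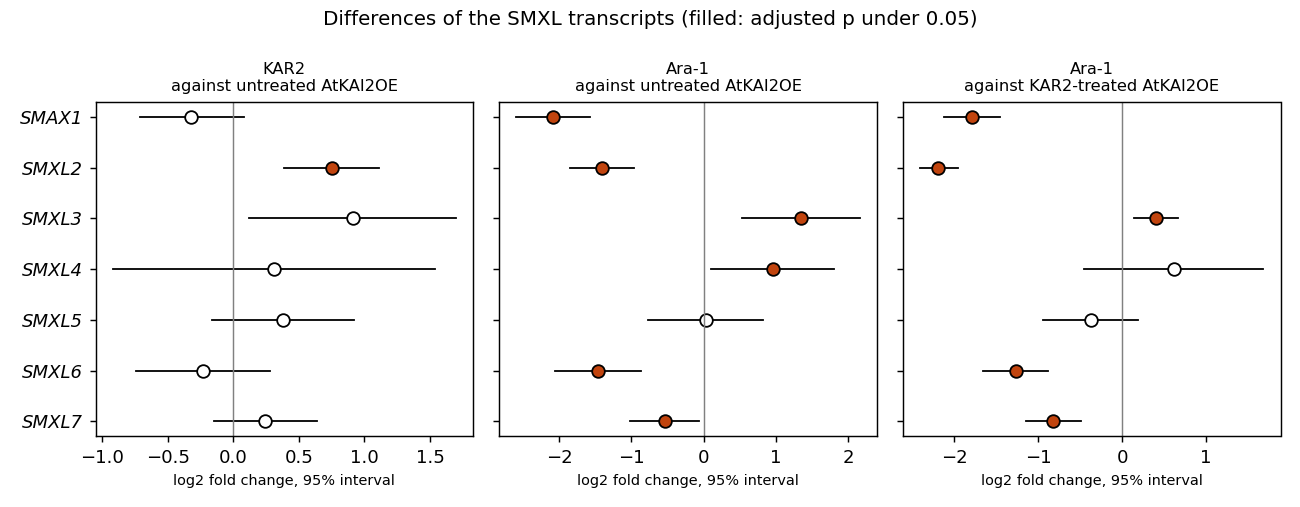
Log2 fold change (horizontal axes, scaled separately) with its 95% interval from edgeR for the 7 expressed SMXL genes in the 3 comparisons, filled where the adjusted p was under 0.05. KAR2 has a filled point for SMXL2 alone (0.75), and in the Ara-1 comparisons SMAX1, SMXL2, SMXL6 and SMXL7 lie left of 0 and SMXL3 lies right of it.

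Both receptor genes rose with KAR2, beside 29.8% of all genes higher. *KAI2*, the karrikin receptor gene and the transgene of this line, did so by a log2 fold change of 1.87 (SE 0.21, adjusted p = 0.000357 from edgeR), and *D14* by 1.81 (SE 0.46, adjusted p = 0.0135) from a low level of 0.551 to 1.94 CPM. In Ara-1 *D14* was higher still at 3.46 CPM, 2.63 above untreated AtKAI2OE on the log2 scale (adjusted p = 0.00235). *MAX2*, the F-box gene common to both branches, had a log2 fold change of -0.26 with KAR2 (adjusted p = 0.135) and was lower in Ara-1 (-0.44, adjusted p = 0.0392).

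Of the 4 genes for the SCF ligase, *CUL1*, its scaffold, fell with KAR2 (-0.45, adjusted p = 0.0248 from edgeR) and the others did not pass. Against untreated AtKAI2OE, Ara-1 had 2 of 4 lower, *CUL1* (-1.19, adjusted p = 0.000349) and *MAX2*, beside 31.8% of all genes lower. Of the 5 TOPLESS corepressor genes none passed with KAR2, each with an adjusted p from edgeR of 0.215 or above, beside 53.8% of all genes called. In Ara-1 *TPR3* was higher (0.57, adjusted p = 0.0205), *TPL* lower (-0.45, adjusted p = 0.0449) and 3 did not pass, beside 69.6% called. Their mean levels in untreated AtKAI2OE spanned 22.25 to 195.6 CPM.

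Transcripts known to rise when SMAX1 and SMXL2 are removed included the karrikin markers *DLK2*, *KUF1* and *BBX20*, which the study itself chose as markers of KAI2 activation. All 3 rose with KAR2, by log2 fold changes of 2.86, 3.15 and 1.88 (adjusted p = 0.000544, 0.000133 and 0.000106 from edgeR). Among all genes, 29.8% were higher with KAR2. In Ara-1 without KAR2 they did not move together. *KUF1* was higher than in untreated AtKAI2OE (2.96, adjusted p = 0.000153), *DLK2* lower (-2.87, adjusted p = 0.00155) and *BBX20* did not pass (0.34, adjusted p = 0.156).

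Of 8 genes that genetic or binding studies tie to SMXL proteins, 5 could be tested, and each passed in both comparisons with untreated AtKAI2OE, where 53.8% (KAR2) and 69.6% (Ara-1) of all genes were called. With KAR2 3 rose and 2 fell. *GA3OX2*, a gibberellin 3-oxidase, had 0 counts in all 3 untreated libraries, 2.44 to 4.42 CPM after KAR2 and 22.8 to 24.1 CPM in Ara-1. Against a floor of 3 counts over the untreated group this was at least 67.2-fold higher after KAR2 and at least 479-fold higher in Ara-1 (adjusted p = 0.000469 and 8.08e-06 from edgeR). Both bounds allow for counting error only, and *GA3OX2* passed the count filter only through the groups where it was high. *RGL1*, a DELLA repressor of gibberellin responses, rose by 3.50 with KAR2 and stood 4.72 higher in Ara-1 on the log2 scale (adjusted p = 9.03e-05 and 6.96e-06). *OBE3*, a PHD-finger gene, fell by 1.52 with KAR2 and was 13.0-fold lower in Ara-1 (adjusted p = 0.000137 and 4.44e-06). The branching regulator *BRC1* and the anthocyanin regulator *PAP1*, targets in the strigolactone branch, had no counts, and *TCP1* was near 0.

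The strigolactone synthesis genes were hardly expressed, with a summed level of at most 2.03 CPM in any library. Only *LBO1* and *CCD7* of 5 could be tested with KAR2. In each comparison both passed the count filter only through the group where they were high. Their p-values are therefore not independent support for a difference. *MAX1* had 0 counts in the untreated line and 26 after KAR2, and was not tested. *LBO1*, a late step of the pathway, was at 0 in untreated AtKAI2OE and at least 10.7-fold higher after KAR2 and 25.7-fold higher in Ara-1 (adjusted p = 0.0055 and 0.000604 from edgeR). These bounds use the same floor and allow for counting error only. *CCD7*, an early cleavage enzyme, fell from 36 counts over the untreated libraries to 5 after KAR2 (adjusted p = 0.0288) and 0 in Ara-1 (adjusted p = 0.000838).

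Markers of tissues that a whole seed can hold were read beside these results. Over 6 phloem genes the summed level was 27.7 to 38.1 CPM in untreated AtKAI2OE, 210.5 to 233.8 CPM after KAR2 and 210.5 to 232.4 CPM in Ara-1. The sucrose transporter gene *SUC2* made up most of the sum after KAR2 and in Ara-1, and was measured at 13.8, 10.6 and 18.7 CPM in the untreated line. *SUC2* was 13.0-fold higher after KAR2 and 12.2-fold higher in Ara-1 (adjusted p = 3.42e-05 and 1.15e-05 from edgeR), *BAM3* rose in both (1.65 and 1.91), and *OPS* rose in Ara-1 (1.92). *BRX* went the other way in Ara-1 (-1.67, adjusted p = 0.0185 from edgeR) and did not pass with KAR2 (-0.44). *APL* passed in neither comparison (0.36 with KAR2 and -0.39 in Ara-1). With KAR2 2 of 6 phloem genes passed, both higher, beside 29.8% of all genes higher. In Ara-1 3 were higher and 1 lower, beside 69.6% of all genes called, so these counts do not set the list apart from other genes. SMXL3, whose product acts in phloem, was lowest in the same untreated libraries, and the part of phloem RNA in its level was not tested.

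The stored messages of the dry seed also differed between the groups. All 9 storage protein and oleosin genes were lower after KAR2 and in Ara-1 than in untreated AtKAI2OE, beside 24.0% and 31.8% of all genes lower. Their summed level was 124500 to 164200 CPM in untreated AtKAI2OE, 14780 to 15990 CPM after KAR2 and 359.3 to 574.3 CPM in Ara-1. *CRU3*, a cruciferin, was 11.3-fold and 464-fold lower (adjusted p = 8.39e-05 and 7.38e-06 from edgeR). Of 4 endosperm genes, *EXPA2* rose with KAR2 (4.62) and was higher in Ara-1 (4.00), *EPR1* (-1.44 and -3.81) and *NCED6* (-2.04 and -2.87) were lower in both, and *MAN7* did not pass. Among all genes, 53.8% (KAR2) and 69.6% (Ara-1) were called in these comparisons. The seed coat genes *BAN* and *TT10* were at 0 in every library and *TT12* reached at most 0.0969 CPM. Whether the state of the seed had a part in the SMXL differences was not tested.

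Among 18291 genes, those whose pattern over the 9 libraries was most like that of SMAX1 were *TPS10*, a trehalose phosphate synthase gene, the heteroglycan glucosidase gene *HGL1* and AT1G36070, a WD40 repeat gene. Their log2(CPM + 1) values, centered on each gene's mean, differed from those of SMAX1 by a root mean square of 0.105, 0.142 and 0.142. *TPS10* was measured at 7.50 to 11.3 CPM in Ara-1, 32.5 to 51.8 CPM in untreated AtKAI2OE and 29.7 to 30.8 CPM after KAR2. The nearest to SMXL2 were AT4G16800, annotated as a crotonase family protein (0.140), AT3G47010, a glycosyl hydrolase gene (0.167), and the annexin gene *ANNAT2* (0.169). *ANNAT2* was measured at 9.74 to 16.1 CPM in Ara-1, 26 to 31.6 CPM in the untreated line and 48.4 to 55.7 CPM after KAR2, the same order of groups as SMXL2.

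Within the family the nearest pattern to SMAX1 was that of SMXL6 (0.366) rather than that of its close relative SMXL2 (0.475), and SMXL3 was the farthest (1.352). SMXL6 ranked 449 among all genes by nearness to SMAX1. Of the family, SMXL4 (0.509) and SMXL5 (0.555) were nearest to SMXL3, but ranked 5672 and 6660 among all genes. The 1 added before taking logs flattens the pattern of SMXL4, which stayed between 0.387 and 1.81 CPM. These are descriptions over 9 libraries that fall into 3 groups.

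The 250 bases before each annotated start were searched on both strands for CACGTG, the G-box read by phytochrome-interacting factors, and for ATAACAA, a sequence bound by SMXL6. CACGTG was in none of the 8 SMXL windows and in 6.49% of the windows of 27443 genes. ATAACAA was in 11.6% of those windows and in that of SMXL7 alone within the family. At 1 of 8 windows the family did not stand out from that share, and binding by SMXL6 was not tested. Both SMXL7 matches are shown, in stretches that overlap, each with the match in capitals and on the plus strand of TAIR10.1.
SMXL7 match 26 bases before the start (chr2:12776170-12776200): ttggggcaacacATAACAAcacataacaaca
SMXL7 match 16 bases before the start (chr2:12776180-12776207): acataacaacacATAACAAcaacaacaa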

How the data were processed

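RNA was measured in 9 libraries of whole seeds. Per the study's methods and the submitters' processing notes, the authors trimmed single-end reads (htStream), aligned them to TAIR10 (HISAT2 2.1.0), kept those mapped uniquely (SAMtools 1.10) and assembled and merged transcripts on Araport11 (StringTie 2.1.3). The authors deposited whole-number counts per gene and, for each library, a normalized signal that equals the count divided by a size factor (DESeq2 1.18.1). No source used here gives the counted strand.

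Entries of a gene were summed, and 1105 entries that name no gene were left out. Each comparison was fitted on all genes of its 6 libraries with edgeR 4.0.16 in R 4.3.3 (filterByExpr, minimum count 10, minimum total 15, TMM scaling, quasi-likelihood test, Benjamini-Hochberg threshold 0.05). The procedure was also run on simulated counts, in which far fewer genes changed than in these data. There most changes of 1.5-fold and 2-fold were missed in both comparisons with untreated AtKAI2OE. False calls exceeded the threshold in both comparisons that include treated AtKAI2OE. Because far fewer genes changed there, neither outcome gives the rate of missed or false calls in these data. Levels used TMM factors over the 9 libraries, and CPM per kb the longest annotated transcript. The study's methods call the AtKAI2OE samples biological replicates. Nothing says that replicates came from separate seed lots, so p-values measure the spread between these libraries. No libraries were duplicates by a chi-square test of their counts.

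The SMXL genes, the other lists (57 genes in all) and the naming rule were chosen with earlier results of these data known. The rule names all SMXL genes, *KAI2*, *D14*, *MAX2*, at most 3 passing genes per list with the largest change against untreated AtKAI2OE, and the 3 genes nearest to SMAX1 and to SMXL2. The phloem genes *BRX* and *APL* were named beyond this rule. Sequences and translations come from RefSeq's TAIR10.1 with Biopython 1.88. Alternatives were other scalings and filters, DESeq2 1.42.0, a common fit of all groups, a replicate block, other gene entries, limma 3.58.1 on log2 of the deposited normalized values, and leaving out each library.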

Additional observations from a re-analysis of the deposited data

How the results depend on the processing

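SMXL2 kept its call in all 3 comparisons under every alternative run, as did SMAX1 and SMXL6 in both Ara-1 comparisons, SMXL3 in Ara-1 against untreated AtKAI2OE and SMXL7 in Ara-1 against treated AtKAI2OE. With KAR2 the number of called members rose from 1 to 2 with RLE scaling, DESeq2, a minimum of 10 counts per library, a common fit of all 9, a replicate block or limma with 10 added, the addition being SMXL3 each time. It rose to 4 with scaling by library size only, where SMAX1 turned to 0.0688 and SMXL6 to 0.15. Leaving out 1 library gave 1 to 3 calls with KAR2, 4 to 5 in Ara-1 against untreated and 4 to 5 against treated AtKAI2OE. SMXL5 in Ara-1 against untreated AtKAI2OE turned to -0.0005 with the block, to -0.0163 with entries named by the gene identifier alone, and ranged from -0.22 to 0.28 with 1 library left out. SMXL4 in that comparison also lost its call with DESeq2, no filter, all 9 libraries, the block and the entries by identifier, and SMXL7 with DESeq2 (adjusted p = 0.0699), no filter and the block. The causes were not tested beyond what each alternative changes.

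The replicate numbers were not taken to pair the samples, because same-numbered deviations did not correlate above 0.1 in every pair of any comparison. The correlations ran from -0.134 to 0.046 in the comparisons with treated AtKAI2OE and were 0.036, 0.369 and 0.067 in Ara-1 against the untreated line. The block lowered the calls over all genes from 9266 to 7867 with KAR2. SMXL4 rests on 12 to 62 counts per library, which limits its precision, and reads of SMXL8 placed in an entry without a gene cannot be traced.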
